A study of Mus musculus with 50 samples.

Results

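Genes for the proteins of the cytosolic ribosome were followed across 5 rearing facilities (RFs) and 2 time points (TPs). They were chosen by symbol (Rpsa, Rplp0 to Rplp2, and Rpl or Rps with a number and at most 1 further letter) and by no measured value. The rule found 81 of the 21887 protein-coding genes of the mouse annotation used here. A peak of open chromatin lay within 2 kb of the gene start (of either end where the strand was not known) in 78 of them. The other 3 were Rpl10l and Rpl39l, with no peak near either end, and Rpl3l, with a peak near its other end only.

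ATAC-seq, which reads open DNA by letting a transposase cut it, was run on NeuN+ (neuronal) nuclei. They came from C57BL/6JRj males and from the ventral hippocampus. All mice came from mothers of 1 breeding population that were sent out during pregnancy, so the RFs shared the genotype and differed in where the pups were born and reared. At TP1 a mouse of 8 weeks was killed in its RF, and at TP2 a littermate that had been moved to the test laboratory and had undergone no test was killed at 14 weeks. Each of the 10 groups held 5 libraries of 80000 sorted nuclei from 1 mouse each. RF1 and RF2 lay in 1 city and kept mice in open or filter-top cages (RF1) or in individually ventilated cages (RF2), RF3, RF4 and RF5 lay in other cities, and RF5 ran a reversed light cycle. The labels of all groups give hexane as the freezing condition of the tissue and no other treatment. NeuN marks most neurons and not 1 neuron type, and only 1 side of the brain was used. Each TP was amplified and sequenced as 1 batch, so TP, age, the move and the sequencing batch cannot be told apart.

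Ribosomal proteins assemble with ribosomal RNA into a small subunit, which decodes the messenger RNA, and a large subunit, which joins the amino acids. The proteins are needed in fixed proportions, and their genes are scattered over the genome, short and active in every cell. In neurons ribosomes also serve local protein synthesis in dendrites, and some of these genes are used as constant references in expression assays.

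The libraries held 33663505 to 77396321 counts in peaks at TP1 and 5111223 to 36401717 at TP2. In 20 pairs of libraries of the same group the counts agreed within sampling noise. Such libraries were counted as 1 sample in each mean and SD, which left n = 3 to 5 per group. At TP2, 7 pairs from different RFs also agreed within sampling noise. They involved RF1 replicates 3 and 5, RF2 replicates 1 to 5 and RF5 replicate 3, and RF1 replicate 3 and RF2 replicate 3 were the shallowest libraries. The promoters of 7 neuronal markers summed to 251 to 361 CPM (counts relative to library size, scaled by TMM), against 16 to 29.0 for 4 astrocyte markers, 22.9 to 36.8 for 4 of 6 oligodendrocyte lineage markers with a peak, 24.2 to 35.2 for 3 of 4 microglial markers and 0.488 to 2.34 for the 1 of 3 endothelial markers. The nuclei therefore carried the marker pattern of their label. A change in the share of a neuron type and a change within each nucleus cannot be told apart in these bulk libraries.

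The promoters of 8 members are printed because the comparisons turn on them or because they carry the motifs counted here. They run from 100 bases before to 25 after a RefSeq start (GRCm38.p6), on the strand of the gene. Capitals mark a CCGGAAG box, a GGGCGG box or its reverse complement, a TATAAA box, or a run of at least 8 C or T near the start. Such a run at the start of the transcript is the known feature of messages whose translation is under control of mTOR. The windows lie at chr17:33955641-33955765 (Rps18, minus strand), chr10:23787185-23787309 (Rps12, minus), chr4:86857343-86857467 (Rps6, minus), chr13:90923022-90923146 (Rps23, plus), chr7:28350589-28350713 (Rps16, plus), chr17:24719963-24720087 (Rps2, plus), chr17:27635220-27635344 (Rps10, minus) and chr10:128549144-128549268 (Rpl41, minus).
Rps18: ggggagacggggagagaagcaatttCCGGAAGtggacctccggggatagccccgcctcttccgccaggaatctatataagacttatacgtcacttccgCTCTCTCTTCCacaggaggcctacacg
Rps12: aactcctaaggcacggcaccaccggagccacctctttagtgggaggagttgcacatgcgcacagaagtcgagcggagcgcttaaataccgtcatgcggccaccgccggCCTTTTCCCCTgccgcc
Rps6: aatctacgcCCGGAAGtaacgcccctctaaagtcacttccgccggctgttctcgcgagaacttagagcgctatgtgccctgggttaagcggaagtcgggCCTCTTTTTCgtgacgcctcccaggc
Rps23: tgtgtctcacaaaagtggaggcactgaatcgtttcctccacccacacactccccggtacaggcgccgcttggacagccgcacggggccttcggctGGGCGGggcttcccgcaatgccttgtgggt
Rps16: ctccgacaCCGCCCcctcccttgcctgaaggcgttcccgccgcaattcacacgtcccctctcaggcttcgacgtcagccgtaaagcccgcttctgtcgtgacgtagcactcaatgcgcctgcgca
Rps2: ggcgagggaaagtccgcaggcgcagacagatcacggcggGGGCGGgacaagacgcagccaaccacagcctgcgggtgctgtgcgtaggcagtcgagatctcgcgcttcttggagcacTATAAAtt
Rps10: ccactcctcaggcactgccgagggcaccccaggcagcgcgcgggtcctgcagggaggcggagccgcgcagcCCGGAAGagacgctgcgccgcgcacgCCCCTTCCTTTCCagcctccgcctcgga
Rpl41: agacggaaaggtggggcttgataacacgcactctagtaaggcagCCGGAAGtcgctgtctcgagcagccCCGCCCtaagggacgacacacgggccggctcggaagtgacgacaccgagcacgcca

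A run of at least 8 C or T within 25 bases of a listed start was found in 33 of the 61 members with a promoter sequence (54.1%) and in 22.04% of 17492 promoters of protein-coding genes. CCGGAAG, the core bound by ETS factors, stood in 25 members (41.0%) against 12.95% of all promoters, on either strand from 250 bases before to 50 after the start. AANATGGCG, a YY1 motif, stood in 5 members (8.20%) against 3.64%, GGGCGG, the SP1 box, in 36 (59.0%) against 49.2%, and TATAAA in 7 (11.5%) against 14.8%. The GC content had a median of 56.7% in the members and 56.3% in all promoters. These letters do not show that a factor was bound. In Rps2 the TATAAA letters lay after the start shown, and Rps12 held the C and T run with no CCGGAAG box in the window shown.

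The peak with the most counts within 2 kb of the gene start stood for each gene. It overlapped the gene start (either end where the strand was not known) in 71 of 78 members. The strand was known for 61 of the 81 genes. The peak was found in all 10 groups in 77 members. It was 626 to 4404 bases wide, with a median of 1937. In 34 members the same peak also lay within 2 kb of another protein-coding gene. Of the 58 members with both a peak and a RefSeq start, the peak held a listed start in 55. The exceptions were Rpl18, Rpl19 and Rpl32l, so values of Rpl18 and Rpl19 below are given with this limit. Their other peaks, at chr7:45717688-45718561 and chr11:98025981-98027559, do hold a listed start. Rpl23a had no known strand, and its peak lay 1377 bases from the nearer gene end and also near Nek8 and Tlcd1. Its values below carry a similar limit.

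The members were accessible in every library. Their peaks held 0.198 to 0.267% of all counts, and 76 to 78 of the 78 were called as peaks in each library. The exceptions were Rpl32l, called in 16 of 50 libraries, and Rpl35, called in 49. Median fold enrichment of the members' called peaks lay between 3.92 and 6.26 by library, above the 2.50 to 3.54 of all called peaks. Per kb of peak, the members had a median level of 15.1 CPM against 8.43 for 13488 gene start peaks. The count behind 1 member in 1 library had a median of 957, and apart from Rpl32l none was under 38.

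By level per kb, Rpl13a was highest at 46.9 CPM per kb, followed by Rps19, the gene most often mutated in Diamond-Blackfan anaemia, at 41.7, Rpl18 at 39.0, Rps29 at 34.7 and Rpl37 at 32.7. Rpl32l was lowest at 2.02, below Rps4x, the X-linked small subunit gene, at 4.89, Rpl4 at 5.12 and Rps27l at 7.80. Rpl32l had 2 to 116 counts by library in a peak 1137 bases from its start, so its values below carry little precision. By CPM of the whole peak, which grows with width, Rpl41, which encodes the smallest ribosomal protein, had the highest mean at 71.8 CPM, followed by Rpl19 at 60.0 and Rps19 at 56.6.

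The first question was whether these promoters depended on the RF at 8 weeks. A fit of all peaks with RF and replicate number as factors (edgeR, quasi-likelihood F test, false discovery rate (FDR) below 0.01) called 74 of 78 members, where 59.1% of all peaks and 88.5% of gene start peaks were called. The 4 members not called were Rpl32 (FDR = 0.233), Rpl32l (0.894), Rpl35a (0.0204) and Rps26 (0.0340). Summing libraries within sampling noise and leaving out the replicate number left 52 members and 76.05% of gene start peaks called. A loess offset, which removes any trend with the level, left 53 members and 78.16% of gene start peaks called. The range between the highest and lowest RF mean was 0.38 in median over members on the log2 scale (0.16 to 0.99), against 0.47 for gene start peaks.

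RF4 held the lowest mean at TP1 in 74 of 78 members, and in 65.1% of gene start peaks. Against the mean of the other 4 RFs, 63 members were lower in RF4 and 0 higher, where 11.5% of all peaks were lower and 6.58% higher, and 59.9% of gene start peaks were lower. Of all 78 members 76 had a fold change below 0, the exceptions being Rpl28 and Rpl6. The median log2 fold change was -0.26 in the members and -0.25 over gene start peaks, so the members lay close to other promoters. The 5 RF4 libraries lay below all 20 other TP1 libraries without overlap in 18 members, and in 2.71% of all peaks. The summed neuronal markers were also lowest in RF4 at TP1, at 251.5 to 264.5 CPM against 295 to 361 in the other RFs. The oligodendrocyte lineage markers were lowest there too, at 23.5 to 25.99 CPM against 28.2 to 36.8. The microglial markers overlapped between RF4 (median 31.6 CPM, 29.15 to 35.2) and RF3 (31.4, 27.98 to 32.57). The astrocyte markers had a median of 17.86 CPM in RF4, close to RF5 (17.55), against 22.06 in RF2, 25.68 in RF3 and 27.54 in RF1. The endothelial marker had 1.292 CPM in RF4, between 1.081 in RF1 and 1.919 in RF3. The part of these in the result was not tested. The size of the RF4 difference depended on the scaling. With total counts in place of TMM the median of all peaks rose from 0.01 to 0.12, the members' median was -0.14 and 37 members were lower, while all peaks went from 6.58% higher and 11.5% lower to 21.2% higher and 6.75% lower. With a loess offset, which removes any trend with the level, 5 members were higher and 9 lower. Beside these, 7.62% and 21.14% of gene start peaks and 6.21% and 6.84% of all peaks were. Summing libraries within sampling noise, with no block, left 42 members and 48.17% of gene start peaks lower.

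**Figure D1:**
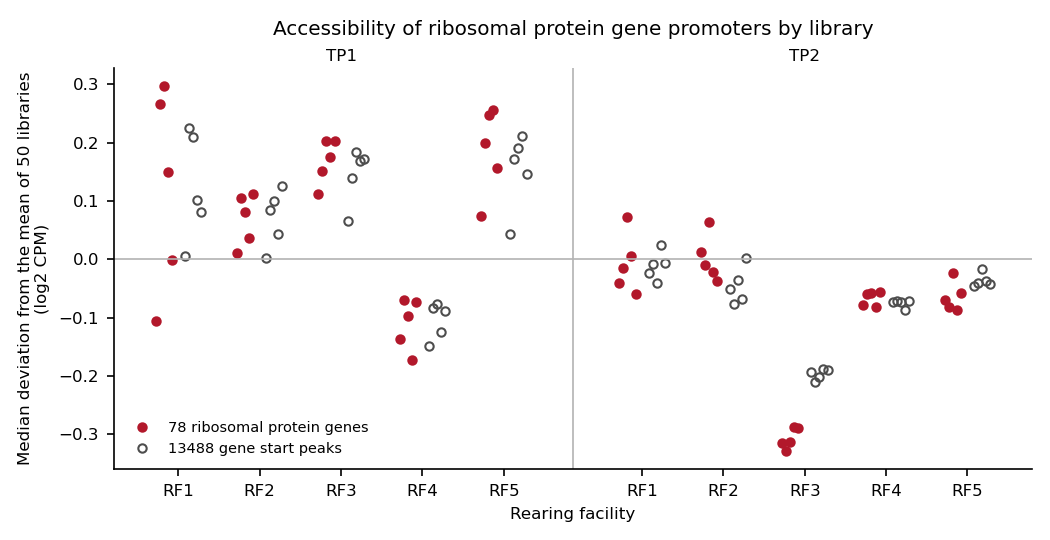
Median deviation of 78 ribosomal protein gene promoters (filled) and of 13488 gene start peaks (open) from each peak's mean over 50 libraries, in log2 CPM, with 1 point per library. RF4 at TP1 sat between -0.17 and -0.07 for the members, RF3 at TP2 between -0.33 and -0.29, and RF1 at TP1 spread from -0.11 to 0.30.

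RF1 split the members at TP1. In RF1 26 members were higher than in the other RFs and 10 lower, where 24.2% of all peaks were higher and 22.4% lower, and 39.1% and 22.98% of gene start peaks. The members' median was -0.01, with fold changes from -0.29 to 0.69. In 12 members all 5 RF1 libraries lay above the other 20, as in 3.52% of all peaks. The 6 largest rises in RF1 were those of Rpl7, Rps29, Rps12, Rps6, Rps23 and Rpl30.

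Rpl7, a large subunit gene whose peak lies at chr1:16103930-16106698 and also near Rdh10, had 51.6, 59.9, 62.6, 66.5 and 71.8 CPM in the RF1 libraries. RF4 libraries held 29.8, 30.4, 32.1, 32.2 and 32.4 CPM. RF2 had 40.4 to 49.1 CPM, RF3 37.8 to 42.2 and RF5 37.3 to 42.1. RF1 therefore lay above and RF4 below all other libraries without overlap, with means of 62.5 ± 7.57 CPM (SD, n = 5) and 31.5 ± 0.969 CPM (SD, n = 4). The log2 fold change by edgeR was 0.69 ± 0.049 (SE, FDR = 1.02e-17) for RF1 and -0.56 ± 0.054 (FDR = 1.73e-12) for RF4.

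Rps12, a small subunit gene with its peak at chr10:23786543-23788109, had 38.6, 42.2, 47.0, 47.7 and 58.6 CPM in RF1. RF4 held 22.2, 22.9, 23.4, 23.9 and 24.5 CPM, and RF2, RF3 and RF5 lay between 28.8 and 36.8. Here too RF1 was highest and RF4 lowest with no overlap. The log2 fold change was 0.62 ± 0.050 in RF1 (edgeR, FDR = 8.23e-16) and -0.63 ± 0.055 in RF4 (FDR = 1.02e-13).

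Rps6, which encodes the protein phosphorylated by S6 kinase downstream of mTOR and whose peak lies at chr4:86856714-86858683, showed the same order. The RF1 libraries had 45.3, 50.2, 51.6, 51.9 and 61.9 CPM and those of RF4 29.0, 29.2, 29.7, 29.8 and 29.9, with the other 15 libraries between 31.7 and 41.1. RF1 lay above and RF4 below every other library. The log2 fold change was 0.61 ± 0.043 in RF1 (edgeR, FDR = 1.09e-17) and -0.42 ± 0.047 in RF4 (FDR = 1.54e-10).

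The other leading members of RF1 were small subunit genes Rps29, with a log2 fold change of 0.65 ± 0.044, and Rps23, with 0.57 ± 0.049, and the large subunit gene Rpl30, with 0.54 ± 0.046. The 10 members lower in RF1 were Rpl11, Rpl19, Rpl23a, Rpl27, Rpl28, Rpl6, Rps10, Rps16, Rps19 and Rps27l, with smaller changes, such as -0.18 ± 0.055 for Rps16 (edgeR, FDR = 0.00497). The RF1 libraries themselves differed. Rps16 had 23.97 and 26.7 CPM in replicates 1 and 5 and 32.9 to 38.3 in the other 3, while replicate 5 was the highest RF1 library in each of the 6 leading members. Without the libraries numbered 5, 2 members were lower in RF1, and without those numbered 3, 17 were. With the counts of the surrounding 1 Mb as offset (regional offset) 70 members were higher in RF1 and 0 lower, beside 54.82% and 6.07% of gene start peaks. The sign of several of the 10 then turned, such as Rps16 (0.31) and Rps19 (0.46). Rpl19 was at 0.11 at the peak that holds its RefSeq start.

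RF3 and RF5 were higher than the other RFs in 17 and 25 members at TP1, where 9.87% and 12% of all peaks and 23.7% and 27.2% of gene start peaks were. RF3 was lower in 0 members, where 3.98% of all peaks were. RF5 was lower in 2 members, where 10.9% of all peaks were lower. These calls moved with the processing. With libraries that agreed within sampling noise summed and no block, RF3 was higher in 0 members and RF5 in 9, beside 3.2% and 11.87% of gene start peaks. With the loess offset RF3 was higher in 9 and lower in 7 (13% and 9.97% of gene start peaks). RF5 was then higher in 13 and lower in 3 (19.6% and 7.43%). With the regional offset RF3 was higher in 2 and lower in 5 (8.415% and 2.8%). In RF2 0 members were higher and 0 lower, where 0.679% and 0.496% of all peaks were called. Differentially accessible regions (DARs, FDR below 0.01 and a log2 fold change of at least 0.5 in size) between any pair of RFs held 24 members at TP1, where 38.6% of all peaks and 44.8% of gene start peaks were DARs. The count was 13 with total counts and 8 with the loess offset. Of the RF pairs, RF1 and RF4 had the most, 18 members, all higher in RF1. Of 144458 peaks 29037 were DARs of that pair in either direction, as were 4313 of 13488 gene start peaks. RF1 was higher than RF3 in 5 members (Rpl30, Rpl7, Rps12, Rps23 and Rps6), where 28997 peaks and 2418 gene start peaks were DARs. RF4 was lower than RF5 in 6 (among them Rpl22, Rpl27, Rpl37, Rps12 and Rps24), where 6291 peaks and 1100 gene start peaks were DARs.

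**Figure D2:**
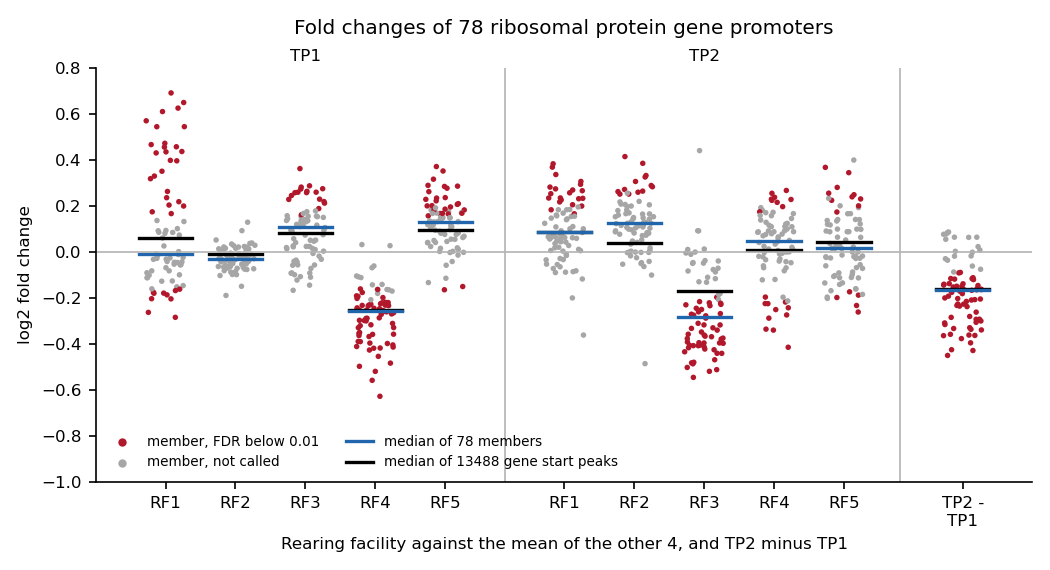
Log2 fold change of 78 ribosomal protein gene promoters in each RF against the mean of the other 4, at TP1 and TP2, and from TP1 to TP2, with 1 point per member. Red points passed FDR 0.01, and bars are the medians of the members (blue) and of 13488 gene start peaks (black), with the 2 bars apart for RF3 at TP2 (-0.28 and -0.17) and close for RF4 at TP1 (-0.26 and -0.25).

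At TP2, after the mice had shared 1 laboratory, 68 of 78 members depended on the RF, where 30.8% of all peaks and 67.8% of gene start peaks did. The 10 not called were Rpl10, Rpl32, Rpl32l, Rpl36a, Rpl37, Rpl4, Rps15a, Rps26, Rps27 and Rps27a. Summing libraries within sampling noise, with no block, left 51 members called, the loess offset 54 and the regional offset 49. Beside these, 40.31%, 52.4% and 38.55% of gene start peaks were called. The range between RF means had a median of 0.42 on the log2 scale over members (0.11 to 0.89) and of 0.38 over gene start peaks. The lowest RF was now RF3, in 61 members and in 54.2% of gene start peaks.

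RF3 was lower than the other RFs in 54 members and higher in 0, where 9.57% of all peaks were lower and 7.11% higher, and 41.3% of gene start peaks were lower. Fold changes were below 0 in 73 of 78 members, and the 5 above 0 were Rpl32l, Rpl34, Rpl37a, Rps12 and Rps23. The members' median was -0.28 on the log2 scale, against -0.17 for gene start peaks. All 5 RF3 libraries lay below the other 20 in 35 members, where 2.06% of all peaks did. The neuronal markers summed to 251 to 257 CPM in RF3 and 268 to 308 in the other RFs, and their part in the result was not tested. RF3 shared no library with the 7 pairs of different RFs that agreed within noise, and 56 members were lower and 2 higher without RF1 replicates 3 and 5 and RF2 replicate 5. The count depended on the scaling. With the loess offset 33 were lower and 6 higher, beside 17.56% and 11% of gene start peaks. With the regional offset 12 were lower and 0 higher, beside 13.55% and 0.193% of gene start peaks. With libraries within sampling noise summed, 46 were lower, beside 27.99% of gene start peaks.

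Rps2, a small subunit gene with its peak at chr17:24719626-24720789 and also near Ndufb10 and Rnf151, had 17.6, 19.6, 21.1, 21.2 and 21.9 CPM in the RF3 libraries. RF5 had 23.9 to 26.2 CPM, RF4 29.7 to 32.5, RF2 27.4 to 35.5, and RF1 30.7 to 34.1 in 4 libraries and 23.1 in replicate 5. RF3 was below all others without overlap, at a mean of 20.2 ± 1.17 CPM (SD, n = 3). The log2 fold change was -0.55 ± 0.058 (edgeR, FDR = 3.34e-11).

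Rps16, another small subunit gene, has its peak at chr7:28350158-28351904. The RF3 libraries had 18.3, 18.3, 19.7, 20.8 and 21.4 CPM, those of RF5 20.97 to 24.2, and those of RF1, RF2 and RF4 23.6 to 36.1. RF3 and RF5 overlapped at their edge, where 1 RF5 library lay below the highest RF3 library. RF3 against the others gave -0.48 ± 0.060 (edgeR, FDR = 2.22e-09).

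Rps10 (chr17:27634726-27636422) encodes a small subunit protein and had 16.7, 17.5, 18.3, 19.7 and 19.7 CPM in RF3, against 20.2 to 32.0 in the other 20 libraries. The groups did not overlap, and the log2 fold change was -0.48 ± 0.060 (edgeR, FDR = 2.07e-09). Large changes were also found in Rpl18 (-0.52 ± 0.055), Rpl23a (-0.50 ± 0.058) and Rpl19 (-0.49 ± 0.048). At the peaks that hold the listed starts, RF3 was lower by -0.48 ± 0.064 in Rpl18 and -0.39 in Rpl19.

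**Figure D3:**
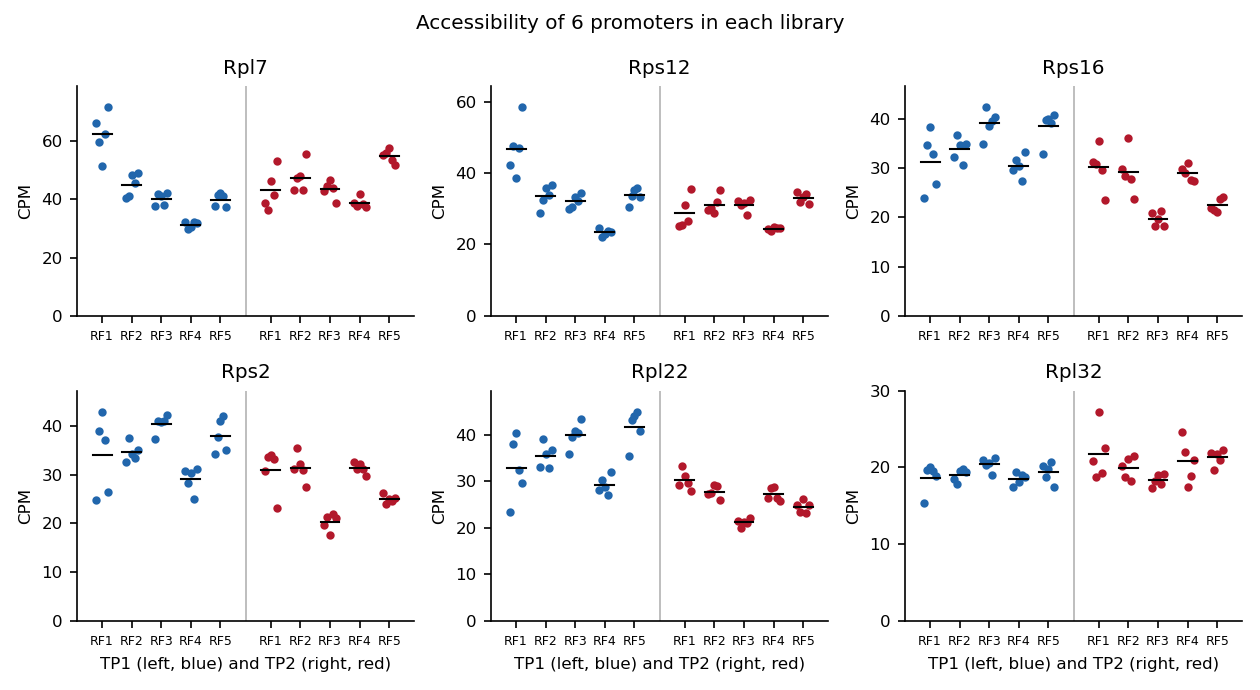
CPM in each of the 50 libraries for the promoters of Rpl7, Rps12, Rps16, Rps2, Rpl22 and Rpl32, by RF at TP1 (blue) and TP2 (red), with bars at the mean of the 5 libraries of a group. RF1 stood out upwards at TP1 in Rpl7 and Rps12, RF3 downwards at TP2 in Rps16, Rps2 and Rpl22, and Rpl32 stayed between 15.4 and 27.3 CPM.

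The other RFs differed less at TP2. RF1 was higher in 21 members and lower in 0 (6.24% and 2.79% of all peaks, 18.65% and 0.734% of gene start peaks). RF2 was higher in 13 and lower in 0 (0.692% and 0.127% of all peaks, 4.16% and 0.0964% of gene start peaks). RF4 was higher in 9 and lower in 11 (5.33% and 4.96% of all peaks, 11.68% and 12.88% of gene start peaks). RF5 was higher in 10 and lower in 5 (2.46% and 2.24% of all peaks, 14.83% and 3.485% of gene start peaks). Most of these calls were lost when libraries within sampling noise were summed with no block, which left 13 members higher in RF1, 0 in RF2, 0 higher and 2 lower in RF4, and 0 higher and 0 lower in RF5. Of gene start peaks 11.71% were then higher in RF1, 0% in RF2, 1.7% higher and 2.135% lower in RF4, and 0% higher and 0% lower in RF5. The balance in RF5 turned with the processing. It was 5 higher and 10 lower with the loess offset (7.97% and 5.97% of gene start peaks) and 8 and 0 with the regional offset (11.46% and 0.482%). Without RF1 replicates 3 and 5 and RF2 replicate 5 it was 22 and 18 (30% and 13.62%). Without those libraries RF1 was higher in 33 and lower in 7 (32.07% and 8.77%). DARs held 24 members, where 21% of all peaks and 21.8% of gene start peaks were DARs. The count was 12 with total counts, 4 with the loess offset and 0 with the regional offset. They were 15 members between RF1 and RF3, 13 between RF2 and RF3, 8 between RF3 and RF4 and, between RF4 and RF5, Rps4x. Of 144449 peaks, 14643, 3699, 16036 and 7626 were DARs of these pairs in either direction. Of 13488 gene start peaks, 1694, 687, 1443 and 746 were. None of the members lay between RF3 and RF5, by the rule with a log2 fold change of at least 0.5. Few peaks did, 380 of all and 11 gene start peaks.

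The RF effect differed between the TPs in 75 of 78 members (interaction term, edgeR, FDR below 0.01), where 54.4% of all peaks and 83.4% of gene start peaks were called. The 3 not called were Rpl32 (FDR = 0.0121), Rpl32l (0.0254) and Rps7 (0.0412). Members called numbered 67 with libraries within sampling noise summed and no block, 64 with the loess offset and 66 with the regional offset. Beside these, 73.28%, 72.4% and 63.27% of gene start peaks and 45.23%, 51.7% and 25.39% of all peaks were called. Among the smallest interaction p-values were those of Rps19, Rps10, Rpl19, Rpl18 and Rps16. In these 5 RF3 was lower at TP2, by -0.44 to -0.52, while none of them was lower in RF3 at TP1.

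The members that rose in RF1 at TP1 were mostly not those that fell in RF3 at TP2, and the libraries of the TPs were separate. Of the 26 higher in RF1 at TP1, 7 (26.9%) were lower in RF3 at TP2, with a median log2 fold change of -0.07. Of the 10 lower in RF1, 10 were lower in RF3 at TP2 with a median of -0.43, and of the 42 not called for RF1, 37 (88.1%) were, with a median of -0.35. The 26 also held all 10 members higher in RF5 at TP2 and all 11 lower in RF4 at TP2. Over the 78 members the fold changes of RF1 at TP1 and RF3 at TP2 had a Pearson r of 0.716 and a Spearman rho of 0.748. Members share libraries and 9 share a 1 Mb region, so these values are descriptive. Whether this split is particular to the members was not tested, as it was not computed over gene start peaks. Among the 19 chromosomes with a member, gene start peaks of chromosome 7 were most often lower in RF1 at TP1 (62.1%) and RF3 at TP2 (75.6%). Those of the X chromosome were most often higher in RF1 at TP1 (88.4%) and least often lower in RF3 at TP2 (4.27%).

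**Figure D4:**
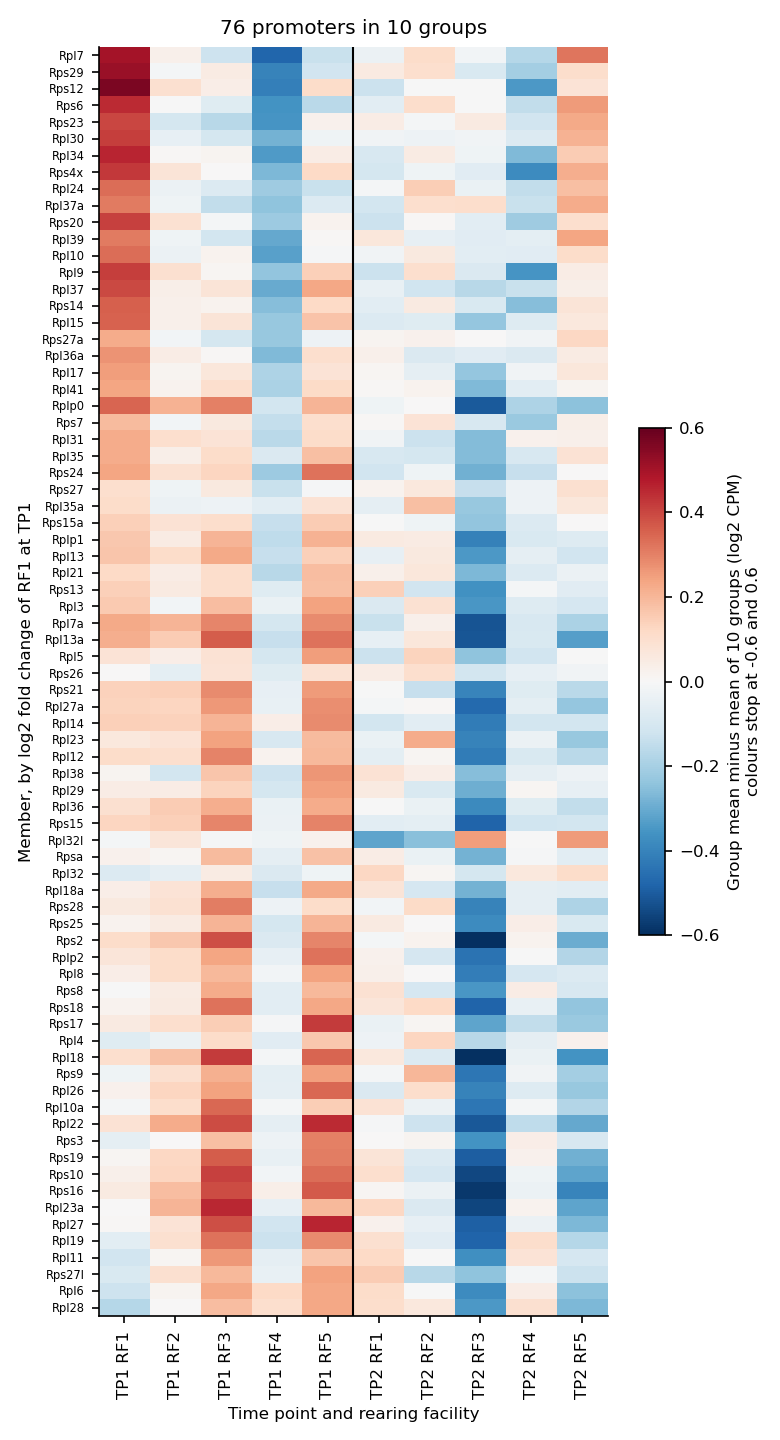
Mean log2 CPM of 76 ribosomal protein gene promoters in 10 groups, as the difference from each member's mean over the groups, ordered from the highest to the lowest fold change of RF1 at TP1. The top rows (Rpl7 to Rpl34) were high in RF1 and low in RF4 at TP1 and pale in RF3 at TP2, and most of the lower rows were low in RF3 at TP2.

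From TP1 to TP2, with the RFs weighted equally, 59 members were lower and 0 higher, where 23% of all peaks were lower and 22.6% higher, and 62.3% and 6.56% of gene start peaks. The median log2 change was -0.17 in members and -0.16 over gene start peaks. Fold changes were below 0 in 67 members. With total counts 8 members were higher and 51 lower, beside 10.66% and 51.04% of gene start peaks and 29.93% and 16.32% of all peaks. With the loess offset 15 were higher and 30 lower, beside 15.8% and 41.11% of gene start peaks and 21.76% and 22.15% of all peaks.

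Rpl22, a large subunit gene with its peak at chr4:152325115-152326442, fell most. Its 25 TP1 libraries ranged from 23.4 to 45.0 CPM and its 25 TP2 libraries from 19.9 to 33.2, so the TPs overlapped. RF3 went from 35.9 to 43.4 CPM at TP1 to 19.9 to 21.98 at TP2, and RF4 from 27.1 to 32.0 to 25.8 to 28.8. The log2 change over all RFs was -0.45 ± 0.030 (edgeR, FDR = 7.08e-24). Rps16 and Rpl18 fell by 0.43 each and Rplp0 by 0.40 on the log2 scale. Rps12, Rpl37 and Rps4x, all high in RF1 at TP1, fell by 0.16, 0.16 and 0.14.

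Calls differed between chromosomes, for members and for other gene start peaks. The 14 members on chromosome 7 were all lower in RF3 at TP2, with a median of -0.41, where 75.6% of gene start peaks of that chromosome were lower, and of these 0 were higher and 3 lower in RF1 at TP1. The 6 on chromosome 17 were all lower in RF3 at TP2, with a median of -0.44, as were 6 of 7 on chromosome 11, beside 68% and 63% of the gene start peaks there. On chromosomes 4, 5 and 10 the calls were mixed, with 2 members of 5 higher in RF1 at TP1 on each, and 3, 4 and 2 lower in RF3 at TP2. The 4 on the X chromosome (Rpl10, Rpl36a, Rpl39 and Rps4x) and the 3 on chromosome 1 (Rpl31, Rpl37a and Rpl7) were all higher in RF1 at TP1, where 88.4% and 59.8% of gene start peaks were. Of the X-linked members 0 were lower in RF3 at TP2, where 4.27% of the gene start peaks there were lower.

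The peaks around a member were then compared with its promoter. For each member, the mean fold change of the other peaks of its 1 Mb region was set against that of its own peak. Over 78 members the Pearson r was 0.863 for RF1 at TP1, 0.896 for RF3 at TP2, 0.854 for RF4 and 0.898 for RF5 at TP2, 0.756 for the change between TPs, and 0.370 for RF4 at TP1. The 26 members higher in RF1 at TP1 lay among peaks with a median of 0.17, above 0 in 20 of them. The 10 lower members lay among peaks with a median of -0.37, above 0 in none of these 10, and the 42 not called among peaks with a median of -0.29. Relative to its region the promoter was higher in RF1 at TP1 by 0.24 in median, lower in RF4 at TP1 by -0.27 and lower in RF3 at TP2 by -0.13. When the region's counts were used as the offset, 70 members were higher in RF1 at TP1 and 71 lower in RF4 at TP1. In RF3 at TP2 12 were lower, and 36 were lower at TP2 than at TP1. The same calls held 54.82%, 65.15%, 13.55% and 47.74% of gene start peaks, and 15.73%, 12.98%, 1.80% and 14.4% of all peaks. With this offset the members' medians were 0.27, -0.28, -0.11 and -0.06, against 0.16, -0.24, -0.11 and -0.09 for gene start peaks. In the last 2 comparisons the members therefore did not exceed other promoters in median. In the 58 members with both values, the GC content of the promoter gave r = -0.02 with the RF1 change at TP1, r = -0.39 with the RF3 change at TP2 and r = -0.50 with the change between TPs, the last against -0.37 over gene start peaks.

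**Figure D5:**
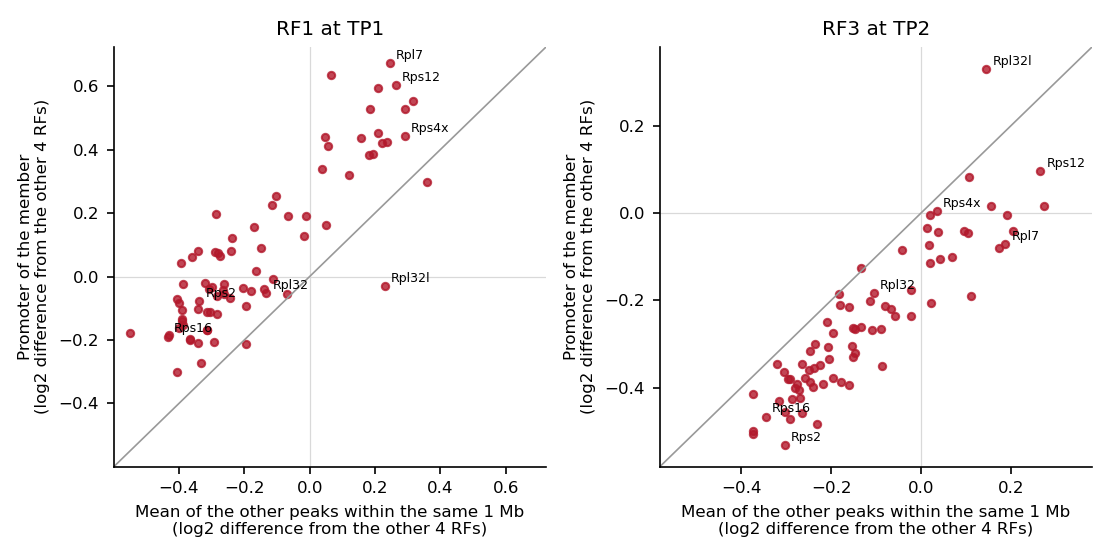
Log2 difference of each member's promoter from the other 4 RFs (vertical) against the mean of the other peaks of its 1 Mb region (horizontal), for RF1 at TP1 and RF3 at TP2, with 1 point per member and the line of equality. The points run along the line (r = 0.863 and 0.896), most of them above it for RF1 and below it for RF3.

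The X-linked members carried similar values. Rps4x, at chrX:102188316-102190134, had 11.2, 11.2, 11.5, 12.9 and 13.1 CPM in RF1 at TP1, against 6.66 to 8.04 in RF4 and 7.91 to 9.76 in RF2, RF3 and RF5. RF1 was above all other TP1 libraries, and RF4 overlapped RF3 at its edge. The log2 fold change was 0.47 ± 0.054 in RF1 and -0.45 ± 0.059 in RF4 (edgeR, FDR = 9.36e-11 and 9.07e-09). At TP2 Rps4x was lower in RF4 (-0.42 ± 0.084) and higher in RF5 (0.37 ± 0.076). Rpl10, Rpl36a and Rpl39 gave 0.43, 0.32 and 0.44 in RF1 at TP1 and -0.41, -0.39 and -0.37 in RF4.

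The 3 proteins of the stalk, the arm of the large subunit that binds the elongation factors, shared 3 changes. Rplp0, Rplp1 and Rplp2 were lower in RF4 at TP1 (-0.39, -0.32 and -0.25), in RF3 at TP2 (-0.40, -0.41 and -0.40) and at TP2 than at TP1 (-0.40, -0.19 and -0.28). Rplp0 alone of them was called in RF1 at TP1, at 0.22 ± 0.053. Rpsa, whose product is a small subunit protein also known as the laminin receptor, was lower in the same comparisons by -0.16, -0.28 and -0.14. Members of both subunits were among the calls. Of 30 small subunit members 26 were lower in RF4 at TP1, 19 in RF3 at TP2 and 23 at TP2, and of 43 large subunit members 34, 31 and 32.

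Some members varied little. Rpl32, a large subunit gene at chr6:115807786-115809755 whose peak also lies near Efcab12, had 15.4 to 21.2 CPM at TP1 and 17.4 to 27.3 at TP2, with every RF overlapping every other at TP1, and RF3 below RF5 without overlap at TP2. It was called in none of the RF, interaction and TP comparisons, with a range between RF means of 0.16 on the log2 scale at TP1. Rpl32l, Rps26 and Rpl35a came next at TP1. At TP2 the smallest ranges were those of Rpl36a (0.11), Rps27a, which encodes a fusion of ubiquitin with a ribosomal protein, Rpl37 and Rpl10, and all 4 were higher in RF1 at TP1. For these 4 a small range at TP2 did not go with a small range at TP1. Among the paralogs, Rps27l was lower in RF1 at TP1 (-0.20 ± 0.054), in RF3 at TP2 (-0.22 ± 0.062) and at TP2 (-0.16 ± 0.032).

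Rpl41, at chr10:128547089-128549840 and also near Zc3h10, had counts enough for narrow groups. At TP1 RF4 had 60.9, 62.1, 62.5, 62.5 and 64.5 CPM and the other 20 libraries 69.0 to 93.1, with no overlap. At TP2 RF3 had 57.6, 58.2, 59.5, 59.7 and 61.5 CPM and the others 65.9 to 76.1, again with no overlap. The log2 fold changes were -0.32 ± 0.045 and -0.27 ± 0.040 (edgeR, FDR = 9.97e-08 and 2.32e-07). With the loess offset both turned, to 0.14 in RF4 at TP1 and 0.0195 in RF3 at TP2.

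Other genes of protein synthesis gave counts of the same kind. Of 7 ribosomal protein genes that the symbol rule leaves out (such as Fau and Rack1), 6 were lower in RF4 at TP1, 5 higher in RF1 at TP1, 3 lower in RF3 at TP2 and 5 lower at TP2. Of 75 mitochondrial ribosomal protein genes 47 were lower in RF4 at TP1, 42 lower in RF3 at TP2 and 52 lower at TP2. The same counts were 34, 28 and 32 of 39 translation factors, 23, 23 and 27 of 37 ribosome biogenesis genes, and 16, 12 and 13 of 20 genes of the mTOR pathway. In median log2 fold change for RF4 at TP1 these lists lay at -0.34, -0.26, -0.36, -0.27 and -0.31. The members lay at -0.26 and gene start peaks at -0.25. Of gene start peaks 59.9% were lower in RF4 at TP1, 41.3% in RF3 at TP2 and 62.3% at TP2. Whether any of the lists differed from other promoters was not tested.

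The promoters of 12 genes used as references in expression assays were called in most of these comparisons too. In RF1 at TP1 9 were higher and 1 lower, in RF4 at TP1 10 were lower, in RF3 at TP2 7 were lower, and between TPs 8 were lower and 1 higher. Of gene start peaks 39.1% were higher in RF1 at TP1, and 59.9% were lower in RF4 at TP1, 41.3% in RF3 at TP2 and 62.3% at TP2. Of all peaks 24.2%, 11.5%, 9.57% and 23% were. Whether the reference genes differed from other promoters was not tested. Actb, the cytoskeletal actin gene, was lower in RF4 at TP1 by -0.49 and in RF3 at TP2 by -0.42. Gapdh, a glycolytic enzyme gene, was lower by -0.27 and -0.32. Hprt, an X-linked purine salvage gene, was higher in RF1 at TP1 by 0.59, and Ywhaz, a 14-3-3 gene, was the 1 that was higher at TP2, by 0.14.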

How the data were processed

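ATAC-seq counts were deposited for 50 libraries. The authors trimmed reads with fastp, aligned them to GRCm38 with Bowtie2, kept concordant unique alignments, marked duplicates with Picard 1.140 and called peaks with MACS2 2.1.4 (q 0.05, broad cutoff 0.1). The unique alignments matter here because ribosomal protein genes have many processed pseudogenes. Peaks found in at least 3 libraries of a group were merged over the 10 groups (multovl). Reads overlapping a peak by at least 30 bases were counted with featureCounts. The deposited values used were the raw count per peak, the score of a merged peak (the number of groups that held it) and, per the file headers, each library's fold enrichment (ratio) and −log10 q-value. A deposited table named as normalized was identical to the raw counts and was not used, and authors' comparisons were not used.

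Counts were scaled by TMM and fitted with edgeR 4.0.16 (R 4.3.3, low counts filtered) with RF and replicate number as factors for each TP, and jointly for interaction and TP. P-values were adjusted over all peaks. Nuclei had been sorted in batches with 1 sample of each RF, and the replicate number stood for that batch, although no source states that it does. The peak with the highest mean CPM within 2 kb of the gene start (of either end where the strand was not known) stood for a gene. Named were the members with the largest RF, interaction and TP changes and the smallest ranges, the paralogs, X-linked, stalk and most or least accessible members, and those with no peak. Rps18 was added for its motifs. Some genes that this rule named are not reported here. Fits were tested on simulated data. Members and lists were chosen with earlier results of these data known. Promoter sequences came from RefSeq (61 members matched). Alternatives were DESeq2 1.42.0, other scalings, filters, peaks, and fits without libraries or the block.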

Additional observations from a re-analysis of the deposited data

Results flagged for a closer look

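Groups of 5 libraries were screened for a library far from the others in 10 members and in the median over all members, and 5 of 110 groups had one, where chance flags about 1 in 20 groups. Rpl32 at TP1 had 15.4 CPM in RF1 replicate 1 against 18.9 to 20.1 in the other 4. Rps6 at TP1 had 41.1 CPM in RF2 replicate 5 against 37.0 to 37.2. Rps16 at TP1 had 32.8 CPM in RF5 replicate 1 against 39.2 to 40.7. Rps4x at TP2 had 10.4 CPM in RF1 replicate 5 against 7.403 to 8.04, and that library was also among those within sampling noise of another RF. Rpl7 at TP2 had 41.9 CPM in RF4 replicate 3 against 37.5 to 38.7. The RF effect differed between TP1 and TP2 in 75 of 78 members by the interaction term (edgeR, FDR below 0.01).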

How the results depend on the processing

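DESeq2 size factors, DESeq2 tests, no filter on low counts, the peak nearest to the gene start and the peak that holds a RefSeq start kept the counts of called members listed here within 1.5 times. The last of these, and leaving out RF1 replicates 3 and 5 and RF2 replicate 5 at TP2, were chosen after seeing the data. The causes of the moves below were not tested. With total counts as the scaling, members with a DAR numbered 13 at TP1 and 12 at TP2 (24 each before), those lower in RF1 at TP1 19 (10), lower in RF4 at TP1 37 (63) and higher in RF1 at TP2 12 (21). With the loess offset, DARs numbered 8 and 4, RF1 at TP1 had 31 lower, RF3 and RF5 at TP1 9 and 13 higher (17 and 25), RF4 at TP1 9 lower, RF1, RF2 and RF5 at TP2 7, 6 and 5 higher (21, 13 and 10), RF3 at TP2 33 lower (54), and TP2 30 lower (59). With the counts of the 1 Mb region as offset, DARs at TP2 numbered 0, RF1 at TP1 had 70 higher (26) and 0 lower, RF3 at TP1 2 higher, RF1 and RF2 at TP2 4 and 6 higher, RF3 at TP2 12 lower, RF4 at TP2 0 higher (9) and 5 lower (11), and TP2 36 lower. With libraries within sampling noise summed and no block, RF1 at TP1 had 2 lower, RF3 and RF5 at TP1 0 and 9 higher, and at TP2 RF1 had 13 higher, RF2 0, RF4 0 higher and 2 lower, and RF5 0 higher. Over all 115 peaks within 2 kb of either end, DARs at TP1 numbered 41, RF1 at TP1 had 32 lower, RF3 at TP1 29 higher and RF4 at TP2 23 higher. Without the 3 libraries nearest to another RF at TP2, RF1, RF2 and RF5 had 33, 27 and 22 higher and 7, 0 and 18 lower (0, 0 and 5 before), and RF3 had 2 higher (0).

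Leaving out the libraries of 1 replicate number at a time gave 61 to 74 members depending on RF at TP1 and 57 to 74 at TP2, 20 to 25 and 22 to 31 with a DAR, 69 to 74 with an interaction and 52 to 59 lower at TP2. At TP1, RF1 had 22 to 27 higher and 2 to 17 lower, RF3 10 to 16 higher, RF4 47 to 65 lower and RF5 8 to 25 higher (8 without replicate 4). At TP2, RF1 had 6 to 32 higher, RF2 2 to 23, RF3 48 to 57 lower, RF4 3 to 7 higher and 7 to 11 lower, and RF5 1 to 20 higher and 0 to 14 lower.

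The replicate numbers did not pair the libraries at TP2, and at TP1 any pairing was weak. Deviations of libraries of the same number from their group means correlated at 0.0717 in mean over 50 pairs at TP1 and at 0.00376 at TP2. The correlation was above 0.1 in 16 of the 50 pairs at TP1 and in 3 of 50 at TP2. At TP1 9 of 25 libraries were closest to their own number, and at TP2 5 of 25. Without the replicate block, 70 members depended on RF at TP1 (74 with it) and 68 at TP2, 24 and 22 had a DAR, 4 were lower in RF1 at TP1 (10), 15 higher in RF5 at TP1 (25), 58 lower in RF4 at TP1, 55 lower in RF3 at TP2, 75 had an interaction and 59 were lower at TP2.

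Of the fold changes of named members, some that had passed the test changed sign. With the loess offset these were, for RF4 at TP1, among others, Rpl18 (0.0193), Rpl19 (0.13), Rpl23a (0.0489), Rpl41 (0.14), Rplp2 (0.0388), Rps10 (0.0144), Rps16 (0.0696), Rps19 (0.17), Rps27a (0.017) and Rpsa (0.12), for RF3 at TP2 Rpl41 (0.0195), and between TPs Rpl19 (0.0279), Rpl37 (0.0229), Rpl41 (0.14) and Rpsa (0.0102). With the regional offset they were, for RF1 at TP1, Rpl19 (0.12), Rpl23a (0.21), Rpl36a (-0.11), Rps10 (0.30), Rps16 (0.31), Rps19 (0.46) and Rps27l (0.0092), and between TPs Rpl19 (0.0257), Rpl41 (0.0112) and Rpsa (0.0093). At the peak that holds its RefSeq start, Rpl19 in RF1 at TP1 was 0.11.

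At the depth of these libraries the median SE of a member's log2 fold change was 0.05 between RFs, so changes of that size were not detectable. RF1 replicate 3 and RF2 replicate 3 at TP2 were the shallowest. P-values measure the spread between libraries, some of which agreed within sampling noise.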
